A study of Mus musculus with 13 samples.

Results

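Described here are 10 of the 55332 genes with values in the count table, which code for secreted proteins or proteoglycans of the tumor stroma. They were taken by name: the thrombospondins Thbs1, Thbs2 and Thbs4, then Postn, Tnc, Sparc and Fn1, and the small leucine-rich proteoglycans Dcn, Lum and Fmod. Each was found once by its Ensembl identifier, and all 10 passed the filter on low counts in every comparison. The study induced NUT carcinoma in mice with a Cre-activated allele labelled NCT and asked what deletion of Sox2 changes in these squamous tumors. Bulk RNA of 13 dissected tumors was sequenced, 1 library each. Oral tumors were 4 labelled KRT14-Cre; NCT+/- (oral WT) and 2 labelled KRT4Cre; NCT+/-; Sox2fl/fl (oral KO). The methods name KRT14-Cre, which acts in basal cells of oral mucosa, skin and salivary gland, for both oral genotypes. Pancreatic tumors were 4 labelled Pdx1-Cre; NCT+/- (pancreatic WT) and 3 labelled Pdx1-Cre; NCT+/-; Sox2fl; fl (pancreatic KO). All groups carry the NCT allele and a Cre transgene, and no group is tumor-free tissue. Cre driver and organ change together and cannot be told apart. Cre acts in the epithelium from which the tumor arises, whereas the genes described here are known mainly from stromal cells, which whole tumors contain in unknown amounts. The ages of the mice are not given in the sources used here, nor whether the tumors of a group came from separate mice, so that p-values measure the spread between these tumors.

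Matricellular proteins are secreted into the extracellular matrix but, unlike collagens, serve less as scaffold than as regulators: they bind integrins, syndecans, growth factors and proteases and are typically low in resting adult tissue and high in wounds and tumor stroma. Small leucine-rich proteoglycans bind collagen, set the diameter and spacing of its fibrils and hold TGF-beta and other ligands. Fibroblasts are the main source of both groups in most connective tissue, although carcinoma, mural and endothelial cells can make thrombospondin 1, tenascin C, fibronectin and SPARC.

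Estimated counts totalled 29393925 to 40419965 in oral WT, 11735031 and 20431977 in oral KO, 40964171 to 46134532 in pancreatic WT and 89562488 to 120482588 in pancreatic KO tumors, so that depth separated the genotypes in both organs. Levels are given as counts per 1000000 counts (CPM), scaled by TMM factors (trimmed mean of M values). Protein-coding genes held 59.5% of the counts of oral KO tumor 1, 84.5% of oral KO tumor 2 and 85.1% to 91.7% elsewhere. Sox2 had 410 to 680 counts in oral WT and 1111 to 1487 in pancreatic WT tumors, against 0 to 1 and 0 to 2 counts in the KO tumors. Basal squamous epithelial markers were present, all 10 reaching 1 CPM in each group (Krt5 1135 to 6774 CPM over the 13 tumors). Of markers of normal pancreas, Ptf1a and Amy2b had no count in pancreatic WT tumors, and the summed level of 10 acinar markers was 5.20 to 14.2 CPM there. It was 5.43, 4.15 and 255 CPM in pancreatic KO tumors 1 to 3, with 9 of the 10 markers at 1 CPM or more in tumor 3.

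Among WT tumors the summed level of the set was higher in every oral than in every pancreatic tumor, and among KO tumors the organs overlapped. The summed level of the 10 genes was 3904 to 6328 CPM in oral WT, 2316 and 4015 CPM in oral KO, 963 to 1629 CPM in pancreatic WT and 1675 to 3575 CPM in pancreatic KO tumors. Per kilobase of exon, the scale on which genes can be compared, Sparc, a collagen-binding glycoprotein, had the highest mean level in all 4 groups (455, 189, 124 and 194 CPM per kb in the same order). In oral WT tumors Lum (166 CPM per kb) and Dcn (154 CPM per kb) came next, and their ranges of 95.4 to 223 and 139 to 168 CPM per kb overlapped. Postn followed at 88.3, Fmod at 59.1, Fn1 at 45.6, Thbs1 at 40.4, Thbs2 at 23.3, Tnc at 18.2 and Thbs4 at 5.15 CPM per kb. In pancreatic WT tumors the order was different: Fn1 (40.6), Tnc (16.8) and Thbs1 (16.4 CPM per kb) stood next to Sparc, ahead of Lum (9.69), Dcn (6.97) and Postn (6.71 CPM per kb). Thbs2 (2.28), Fmod (1.75) and Thbs4 (0.971 CPM per kb) were lowest. The ranges of Tnc (8.82 to 20.9) and Thbs1 (11.5 to 19.4 CPM per kb) overlapped there, as did those of Lum, Dcn and Postn (2.40 to 20.5, 4.08 to 10.9 and 3.03 to 12.5 CPM per kb).

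**Figure D1:**
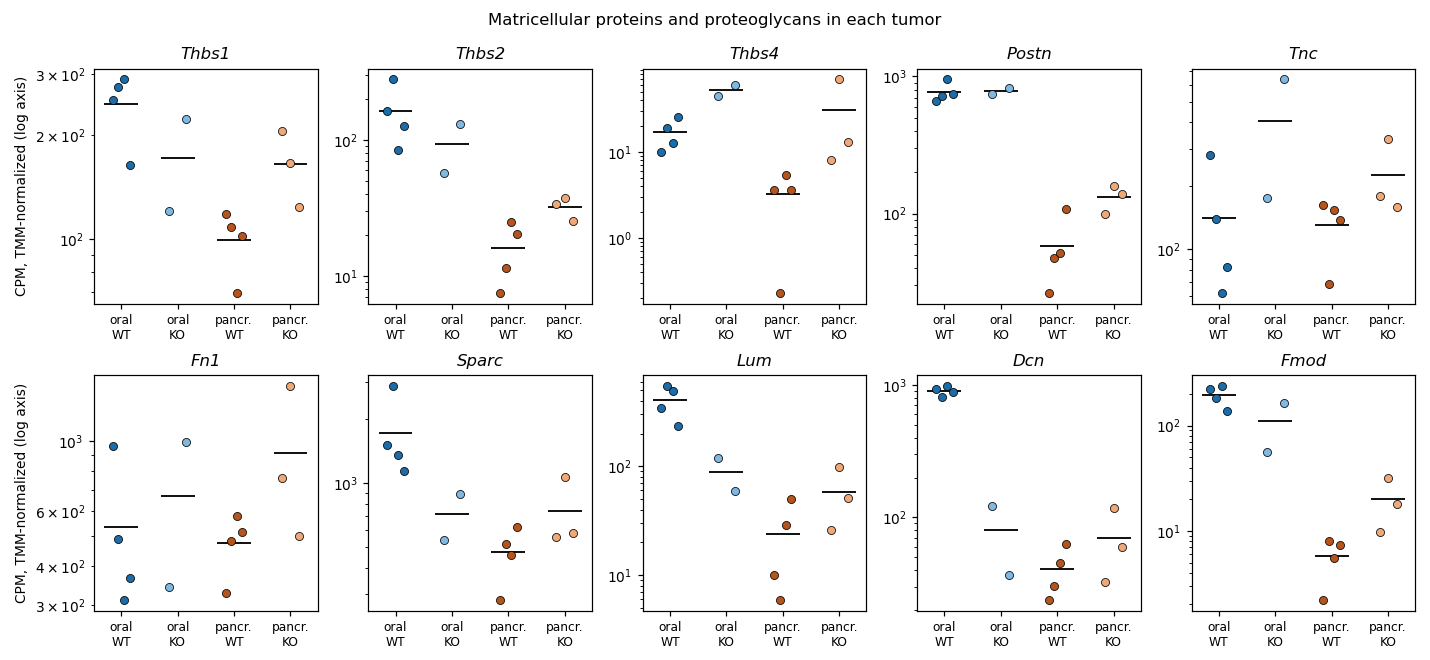
Level of each of the 10 genes in each of the 13 tumors, in TMM-normalized CPM on log axes that differ between panels; points are tumors and bars are group means. The 4 oral WT tumors have 812 to 978 CPM of Dcn and the oral KO pair 123 and 37.1, and Postn lies between 660 and 954 CPM in all 6 oral tumors.

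The comparison of oral with pancreatic tumors among Sox2 WT mice asks how levels of these genes differ between organs under the same NCT allele. Of the 10 genes, 8 were called higher in oral tumors and none lower, a call meaning an adjusted p under 0.05 and a log2 fold change beyond 1 in either direction. Over all 23164 genes tested, 16.5% were called, 9.3% higher and 7.24% lower. The median log2 fold change of the 10 genes was 2.88, against 0.00 over all genes tested, and 8 of the 10 had every oral tumor above every pancreatic tumor, which 14.2% of all genes did (27.9% did not overlap in either direction, 13.7% with oral tumors lower). The call held in all 18 alternatives for 7 of the 8, all but Thbs4. How many stromal cells a tumor holds and how much RNA each makes cannot be told apart in bulk RNA.

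The small leucine-rich proteoglycans differed most. Fmod (fibromodulin, which binds collagen fibrils, chr1:134037254-134048277, plus strand, GRCm38) had 222, 183, 237 and 139 CPM in oral WT tumors 1 to 4 and 2.20, 8.04, 5.51 and 7.37 CPM in pancreatic WT tumors 1 to 4. The groups were far apart, with a log2 fold change of 5.08 ± 0.42 (SE, n = 4 and 4), a 33.8-fold difference (adjusted p = 0.000529, edgeR quasi-likelihood test). Dcn (decorin, which coats collagen and binds TGF-beta, chr10:97479609-97518143, plus strand) had 928, 812, 978 and 879.5 CPM in oral tumors and 23.8, 30.6, 45.0 and 63.4 CPM in pancreatic tumors. It was 22.1-fold higher in oral tumors (log2 4.47 ± 0.32, edgeR adjusted p = 0.000267), and its 4 oral values differed by a factor of 1.21 between the lowest and the highest, the least of the 10 genes in that group. Lum (lumican, which shapes collagen fibrils in cornea and skin, chr10:97565128-97572703, plus strand) had 345, 547, 496 and 234 CPM against 9.92, 5.88, 29.0 and 50.1 CPM. Its groups did not overlap, and the log2 fold change was 4.09 ± 0.69 (edgeR adjusted p = 0.00441).

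Periostin and the thrombospondins followed. Postn (chr3:54361109-54391037, plus strand), an integrin ligand of wound and tumor fibroblasts, had 660, 718, 954 and 741 CPM in oral WT tumors. In pancreatic WT tumors it had 26.4, 47.3, 51.6 and 108 CPM, and the groups were 13.2-fold apart (log2 3.72 ± 0.41, edgeR adjusted p = 0.00103). Thbs2 (chr17:14665500-14694235, minus strand), a secreted regulator of collagen fibrils and vessel growth, had 164, 279, 84.7 and 126 CPM against 7.45, 11.3, 24.8 and 20.2 CPM. Its lowest oral value was above its highest pancreatic value, with a log2 fold change of 3.36 ± 0.49 (edgeR adjusted p = 0.00252). Thbs1 (chr2:118111876-118127133, plus strand), which activates latent TGF-beta and binds CD47 and CD36, differed less, with 253, 275, 290.0 and 164 CPM against 118, 108, 69.6 and 102 CPM. The log2 fold change was 1.30 ± 0.22 (edgeR adjusted p = 0.00388). Thbs4 (chr13:92751590-92794818, minus strand), the thrombospondin of tendon and muscle matrix, had 10.04, 19.1, 12.9 and 25.7 CPM against 3.65, 0.226, 5.33 and 3.57 CPM. Its log2 fold change of 2.40 ± 0.73 passed the test (edgeR adjusted p = 0.0435), but the call was lost without oral WT tumor 1, 2, 3 or 4 or pancreatic WT tumor 1, 3 or 4, with adjusted p from 0.0511 to 0.0873.

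Sparc (chr11:55394500-55423183, minus strand) had 1518, 2869, 1356 and 1145 CPM in oral and 281, 519, 460.1 and 625 CPM in pancreatic WT tumors, a log2 fold change of 1.87 ± 0.34 (edgeR adjusted p = 0.00567). Fn1 and Tnc, both long glycoproteins of provisional and tumor matrix, did not separate the organs. Fn1 (fibronectin, chr1:71585520-71653200, minus strand) had 964, 488, 312 and 367 CPM in oral and 328, 479.5, 578 and 512 CPM in pancreatic WT tumors, with a log2 fold change of 0.17 ± 0.35 (edgeR adjusted p = 0.774). Tnc (tenascin C, chr4:63959785-64047015, minus strand) had 281, 139, 62.1 and 82.9 CPM against 163, 68.5, 154 and 138 CPM, with a log2 fold change of 0.11 ± 0.47 (edgeR adjusted p = 0.893). The groups of both genes overlapped, and the sign of both turned negative without oral WT tumor 1 (Fn1 -0.28, Tnc -0.46), the tumor in which both were highest.

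Fibroblast markers moved with these results as a sum, though not each of them. The summed level of 12 fibroblast markers (led by Col1a1 and Col3a1) was 7653 to 17840 CPM in oral WT and 1150 to 2173 CPM in pancreatic WT tumors. Of the 11 tested, 7 were called higher in oral tumors, against 9.3% of all genes. A log2 fold change above 0 was found for 8 of the 11 and below 0 for 3. Thy1 overlapped, with 15.8 to 34.9 CPM in oral and 17.8 to 31.8 CPM in pancreatic WT tumors. Of 8 myofibroblast and mural markers, 6 were below 0 and 2 above. The fibroblast sum was mostly Col1a1, Col1a2 and Col3a1. Per 1000 CPM of it, Dcn was 45.5 to 128 CPM in oral WT and 20.7 to 29.2 CPM in pancreatic WT tumors. Postn was 40.3 to 124 and 22.95 to 49.9 CPM in the same order. The part of fibroblast content in the organ difference was not tested. Osteoblast markers also differed, with 6 of 8 called higher in oral WT tumors (summed level 327 to 714 against 102 to 160 CPM), and their part was not tested either.

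**Figure D2:**
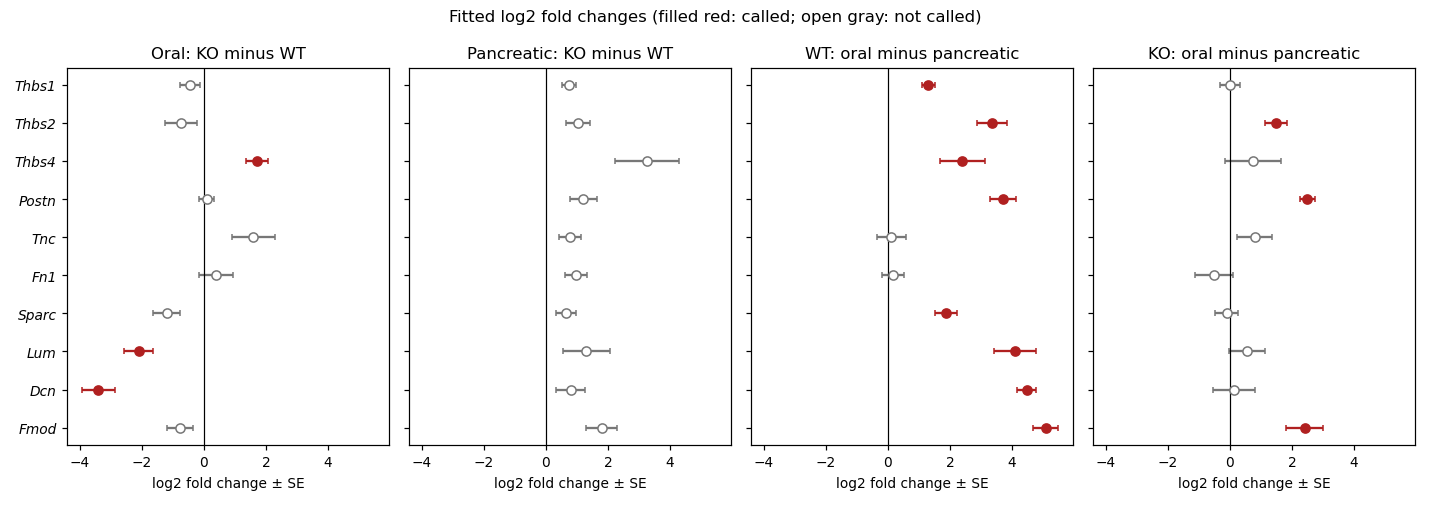
Fitted log2 fold change of each gene with its SE in 4 comparisons; filled red points passed the threshold (adjusted p under 0.05 and a log2 fold change beyond 1) and open gray points did not. Filled points mark 8 genes in the comparison of WT tumors between organs, 3 in the oral genotype comparison, 3 in the comparison of KO tumors between organs and none in the pancreatic genotype comparison.

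Promoter windows are shown for Postn, Fmod and Thbs2, which were 10.3-fold or more higher in oral than in pancreatic WT tumors, and for Tnc, which did not separate the organs. Each holds 250 bases before and 50 after the RefSeq start on GRCm38.p6, 5′ to 3′ on the gene's strand. RefSeq windows were matched for 6 of the 10 genes. Capitals mark exact matches, on either strand, to 4 motifs: the TATA box (TATAAA, or TTTATA on the other strand), the CCAAT box (CCAAT or ATTGG), the AP-1 motif (TGANTCA) and the TEAD motif (GGAATG).
Postn, chr3:54360857-54361156, plus strand: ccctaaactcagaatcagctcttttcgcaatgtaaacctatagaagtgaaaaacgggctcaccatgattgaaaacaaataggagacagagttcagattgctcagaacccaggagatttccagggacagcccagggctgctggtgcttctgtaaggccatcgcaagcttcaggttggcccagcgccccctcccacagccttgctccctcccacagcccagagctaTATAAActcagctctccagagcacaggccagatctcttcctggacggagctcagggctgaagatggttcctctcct
Fmod, chr1:134037004-134037303, plus strand: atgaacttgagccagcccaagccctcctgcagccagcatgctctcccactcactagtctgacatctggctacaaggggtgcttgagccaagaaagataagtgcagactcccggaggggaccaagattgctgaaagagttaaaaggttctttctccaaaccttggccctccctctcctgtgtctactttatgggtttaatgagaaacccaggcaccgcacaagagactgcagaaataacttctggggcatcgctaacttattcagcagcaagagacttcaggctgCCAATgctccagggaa
Thbs2, chr17:14694213-14694512, minus strand: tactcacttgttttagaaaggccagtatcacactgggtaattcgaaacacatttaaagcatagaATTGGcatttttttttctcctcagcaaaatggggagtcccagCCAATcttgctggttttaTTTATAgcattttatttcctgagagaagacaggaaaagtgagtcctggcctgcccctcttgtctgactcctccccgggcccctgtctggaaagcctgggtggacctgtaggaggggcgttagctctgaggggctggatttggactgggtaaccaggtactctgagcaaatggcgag
Tnc, chr4:64046966-64047265, minus strand: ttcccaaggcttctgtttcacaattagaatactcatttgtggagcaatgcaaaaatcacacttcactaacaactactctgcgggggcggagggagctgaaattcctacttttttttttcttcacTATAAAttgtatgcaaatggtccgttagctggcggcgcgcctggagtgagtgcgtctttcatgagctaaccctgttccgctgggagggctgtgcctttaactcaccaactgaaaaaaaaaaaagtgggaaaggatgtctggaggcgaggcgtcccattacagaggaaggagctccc
Positions are those of a motif's first letter, with the start base as 0. The Postn window held a TATA box at -26 and Tnc one at -126. Thbs2 held one in the other orientation at -126 and CCAAT boxes at -186 and -144. Fmod held no TATA box and a CCAAT box at position 34. None of the 4 windows held the AP-1 or TEAD motif as written. Over all 32544 windows of this length, 13.6% held the TATA box, 37.4% the CCAAT box, 7.79% the AP-1 motif and 14.6% the TEAD motif. A match describes letters and not a site in use.

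Deletion of Sox2 in oral tumors went with lower decorin and lumican and higher thrombospondin 4, though each of these calls was lost in some alternatives. Of the 10 genes, 2 were called lower and 1 higher in oral KO than in oral WT tumors, where 11.7% of the 22342 genes tested were called, 2.89% lower and 8.81% higher. The median log2 fold change of the 10 genes was -0.59, against 0.00 over all genes. In 3 genes both KO tumors lay below all WT tumors and in 1 above, but 48.0% of all genes had groups that did not overlap at these sample sizes, 22.4% with KO tumors higher and 25.5% lower. By edgeR, 4 of the 10 had an unadjusted p under 0.05. That count is given without the share of all genes, which was large in oral tumors, and is no result about the set.

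Dcn fell furthest. Against 812 to 978 CPM in the 4 WT tumors, oral KO tumors 1 and 2 had 123 and 37.1 CPM, a 10.6-fold lower level (log2 -3.40 ± 0.53, n = 2 and 4, edgeR adjusted p = 0.0196). Both KO tumors were far below the narrow WT range. The edgeR call was lost in 4 of 16 alternatives (adjusted p up to 0.0928), among them without oral WT tumor 1 (adjusted p = 0.0510) or 2 (0.0659) and with protein-coding genes alone (log2 -3.22, adjusted p = 0.0595), while the log2 fold change was between -4.55 and -2.76 in all 16 alternatives. Without oral KO tumor 1, the library with the low share of protein-coding counts, it was -4.55 (edgeR adjusted p = 0.0179), the remaining KO tumor being assumed to vary like the WT tumors. The KO tumors held 1236 and 950.0 Dcn counts, and with all 6 libraries thinned to the smallest total the log2 fold change was -3.32 (edgeR adjusted p = 0.0200).

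Lum had 120 and 58.9 CPM in the oral KO tumors against 234 to 547 CPM in the WT tumors, again with no overlap. The log2 fold change was -2.09 ± 0.47 (edgeR adjusted p = 0.0347). This call was lost in 8 of 16 alternatives. Among them were the fits without oral WT tumor 1, 2 or 3 (edgeR adjusted p 0.0663 to 0.0818). The others included the tumor number as a block (0.157), 1 fit of all 13 tumors (0.0699) and protein-coding genes alone (0.0800). Without oral KO tumor 1 or 2 the log2 fold change was -2.73 or -1.64, the ends of its range over the alternatives. Fmod, the third proteoglycan, had 55.9 and 164 CPM in KO tumors, the second inside the WT range of 139 to 237 CPM, and did not pass (log2 -0.77 ± 0.43, edgeR adjusted p = 0.243).

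The ratio of Dcn to other stromal genes changed with it. Dcn to Postn was 1.03 to 1.41 in oral WT tumors and 0.166 and 0.0453 in the KO tumors, whereas Fmod to Postn was 0.188 to 0.336 and 0.0755 and 0.200. Dcn to Lum was 1.49 to 3.77 in WT and 1.02 and 0.630 in KO tumors. Decorin was thus lower than in any oral WT tumor relative to both. Postn itself was level across genotypes, at 739.8 and 818 CPM in the KO tumors against 660 to 954 CPM (log2 0.09 ± 0.23, edgeR adjusted p = 0.799).

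Thbs4 was the gene called higher, with 45.5 and 60.5 CPM in the KO tumors against 10.04, 19.1, 12.9 and 25.7 CPM in the WT tumors. Both KO tumors lay above all WT tumors (log2 1.72 ± 0.36, 3.30-fold, edgeR adjusted p = 0.0296). The call was lost in 8 of 16 alternatives. Among them were the fits without oral WT tumor 1, 2 or 3 (edgeR adjusted p 0.0557 to 0.0771). The others included the tumor number as a block (0.0837), 1 fit of all 13 tumors (0.164) and protein-coding genes alone (0.0651). Without oral KO tumor 1 or 2 the log2 fold change was 1.89 or 1.54, and it was between 1.51 and 2.01 over the alternatives. Thbs1 (120 and 222 CPM) and Thbs2 (56.8 and 130 CPM) did not move with it: 1 KO tumor of each lay inside the WT range, with log2 fold changes of -0.45 ± 0.32 and -0.73 ± 0.52 (edgeR adjusted p = 0.345 and 0.346).

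Tnc, Fn1 and Sparc varied between the 2 oral KO tumors. Tnc had 175 CPM in oral KO tumor 1 and 639 CPM in tumor 2, the highest of the 13 tumors, against 62.1 to 281 CPM in WT tumors (log2 1.60 ± 0.69, edgeR adjusted p = 0.150). Fn1 had 343 and 994 CPM, tumor 1 inside and tumor 2 above the WT range of 312 to 964 CPM (log2 0.40 ± 0.56, edgeR adjusted p = 0.641). Its sign changed without oral KO tumor 2 (log2 -0.52). Tnc to Fn1 was 0.510 and 0.643 in KO and 0.199 to 0.291 in WT tumors, so that the ratio did not overlap although each gene did. Sparc had 537 and 892 CPM, both below the WT minimum of 1145 CPM, with a log2 fold change of -1.19 ± 0.43 that missed the threshold (edgeR adjusted p = 0.0992) and passed it with DESeq2 (log2 -1.22, adjusted p = 0.0268).

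Markers of other cells differed between the oral genotypes too. Fibroblast markers summed to 9249 and 9471 CPM in oral KO tumors, inside the WT range of 7653 to 17840 CPM, and of the 11 tested only Pi16 was called, higher in KO tumors. Dcn per 1000 CPM of fibroblast marker was 45.5 to 128 CPM in WT tumors and 13.3 and 3.91 CPM in KO tumors, and Lum 30.5 to 64.7 against 12.96 and 6.22 CPM. Col1a1, Col1a2 and Col3a1 made most of the fibroblast sum (4421, 2227 and 2406 of 9249 CPM in oral KO tumor 1). The ratios are therefore mainly to collagen RNA. Pdgfra had both KO tumors below all WT tumors (48.9 and 45.9 against 59.3 to 71.9 CPM), and Pi16 had both above. Skeletal muscle markers summed to 5973 and 3340 CPM in the KO tumors and to 21.7, 16.4, 28.5 and 657 CPM in WT tumors 1 to 4. All 16 had a log2 fold change above 0, 10 had no overlap between groups and 1 was called, and Ttn and Neb led the list. Tendon markers, among tissues in which Thbs4 is known, summed to 10.7 and 11.7 against 10.2 to 50.1 CPM. Single genes led the WT sums: Kera made 38.7 of 50.1 CPM in oral WT tumor 4, and Tnmd 18.4 of 36.75 CPM in tumor 2. Of the 5 tendon markers, 2 had a log2 fold change above 0 and 3 below. Myeloid markers summed to 264 and 451 CPM against 367 to 616 CPM. In 7 of the 10 both KO tumors lay below all WT tumors, as in 25.5% of all genes. S100a8, in contrast, had 288 and 49.0 CPM against 9.22 to 192 CPM. Basal squamous markers summed to 5296 and 4249 CPM against 5123 to 9906 CPM, with 3 of 10 lower without overlap. The markers of these 3 lists called by edgeR, named after their values were seen, were Myh4 (muscle, log2 7.40), C1qa and C1qb (myeloid, -2.07 and -2.10) and Krt15 (basal, -3.11). DESeq2 called 2 muscle markers higher (Actn3 and Myh4), 5 myeloid markers lower (Adgre1, C1qa, C1qb, Cx3cr1 and Lyz2) and 3 basal markers lower (Epcam, Krt15 and Krt5). The part of fibroblast, muscle, myeloid and epithelial content in the Dcn, Lum and Thbs4 results was not tested.

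**Figure D3:**
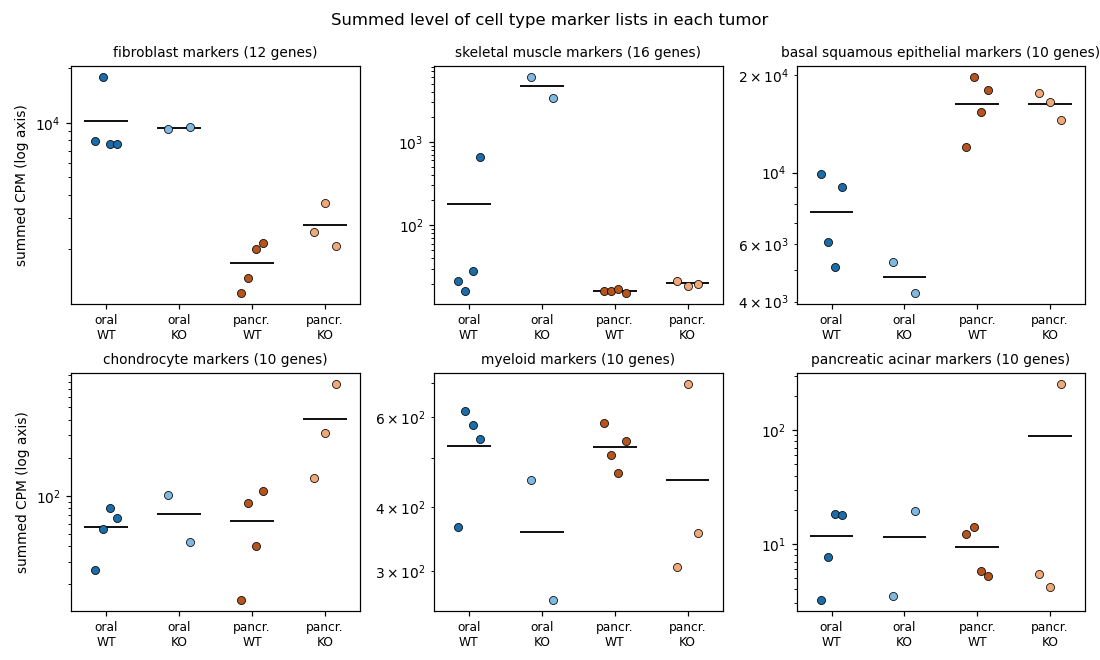
Summed CPM of 6 cell type marker lists in each tumor on log axes; points are tumors and bars are group means. Skeletal muscle markers lie at 3340 and 5973 CPM in oral KO tumors and at 16.4 to 657 CPM in oral WT tumors, whereas fibroblast markers of oral KO tumors lie inside the oral WT range.

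In pancreatic tumors no gene of the set was called after deletion of Sox2, although all 10 fitted log2 fold changes were above 0. Over all 24653 genes tested, 0.629% were called, 0.337% higher and 0.292% lower. The log2 fold changes ran from 0.66 for Sparc to 3.26 for Thbs4, with a median of 0.99 against 0.02 over all genes tested. By edgeR, 6 of the 10 had an unadjusted p under 0.05, a count given without the share of all genes and no result about the set. DESeq2 called 1, Fmod. In 4 genes, Fmod, Thbs1, Thbs2 and Thbs4, every KO tumor lay above every WT tumor, which 6.8% of all genes did (15.6% did not overlap in either direction, 8.75% with KO tumors lower).

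Fmod had 9.86, 31.6 and 18.2 CPM in pancreatic KO tumors 1 to 3 against 2.20 to 8.04 CPM in the WT tumors. Its log2 fold change was 1.79 ± 0.51 (edgeR adjusted p = 0.153, DESeq2 adjusted p = 0.0122). Thbs1 had 206, 165 and 124 CPM against 69.6 to 118 CPM (log2 0.74 ± 0.22, edgeR adjusted p = 0.160), and Thbs2 33.6, 37.3 and 25.2 CPM against 7.45 to 24.8 CPM (log2 1.02 ± 0.39, adjusted p = 0.258). For both, the lowest KO tumor was close to the highest WT tumor. Thbs4 had 7.995, 70.4 and 13 CPM against 0.226 to 5.33 CPM, and its value rested on 1 KO tumor: the log2 fold change was 3.26 ± 1.03 with pancreatic KO tumor 2 and 1.73 without it (edgeR adjusted p = 0.191 and 0.489). Postn had 99.7, 159.8 and 140.2 CPM, the lowest inside the WT range of 26.4 to 108 CPM (log2 1.2 ± 0.44, edgeR adjusted p = 0.243). Fn1 had 762, 1494 and 500.2 CPM, and Dcn 32.6, 117 and 60.2 CPM, each with 1 or more KO tumors inside the WT range.

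Pancreatic KO tumor 2 had the highest level of its group for 9 of the 10 genes, all but Thbs1. Without it the log2 fold changes were 0.22 to 1.73, all still above 0 and none called. The direction was above 0 for every gene under every alternative tried. Chondrocyte markers summed to 137 to 764 CPM in KO and 15.01 to 108 CPM in WT tumors, and fibroblast markers to 2093 to 3620 CPM against 1150 to 2173 CPM, with 1 of 12 fibroblast markers called, Mfap5. All 12 fibroblast markers had a log2 fold change above 0 with a median of 0.77, near the 0.99 of the 10 genes, and their part in the result was not tested. The acinar sum of 255 CPM was that of pancreatic KO tumor 3, in which none of the 10 genes was highest.

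Whether deletion of Sox2 went with different changes in the 2 organs was tested as the interaction in 1 fit of all 13 tumors. Of the 10 genes, 4 were called (Dcn, Lum, Fmod and Sparc), all with a lower genotype effect in oral than in pancreatic tumors. Over all 25836 genes tested, 12.3% were called, 4.85% lower and 7.41% higher. The difference comes from the joint fit and need not equal that of the separate fits beside it. Dcn gave -3.40 in oral and 0.80 in pancreatic tumors, a difference of -4.28 ± 0.77 (edgeR adjusted p = 0.0102), and its call held in all 21 alternatives with a difference between -5.44 and -3.65 and adjusted p up to 0.0369. Lum gave -2.09 and 1.31, a difference of -3.48 ± 1.06 (edgeR adjusted p = 0.0476). Fmod gave -0.77 and 1.79 (difference -2.61 ± 0.76, edgeR adjusted p = 0.0416), and Sparc -1.19 and 0.66 (difference -1.91 ± 0.57, edgeR adjusted p = 0.0432).

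The last 3 calls depended on single tumors. Lum and Sparc each lost the call in 13 of 21 alternatives and Fmod in 10. Leaving out oral WT tumor 1, 2 or 3, oral KO tumor 1, pancreatic WT tumor 1 or 3 or pancreatic KO tumor 2 or 3 ended the call of all 3, oral KO tumor 2 ended that of Lum and Sparc and pancreatic WT tumor 2 that of Sparc. The adjusted p without 1 of these tumors was 0.0600 to 0.161 for Lum, 0.0512 to 0.129 for Fmod and 0.0513 to 0.138 for Sparc, with the sign unchanged. The other 6 genes were not called by edgeR, whereas DESeq2 called 6 of the 10 lower, the same 4 with Thbs1 (-1.30, DESeq2 adjusted p = 0.0254) and Thbs2 (-1.86, DESeq2 adjusted p = 0.0387). Tnc was the one with a difference above 0 (0.75 ± 0.84, edgeR adjusted p = 0.557), which fell below 0 without oral KO tumor 2 (-0.47).

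Among KO tumors, whole oral tumors had higher Postn, Fmod and Thbs2 than pancreatic tumors, and the gap in decorin and lumican was not detected. Fibroblast markers summed to 9249 and 9471 CPM in oral and 2093 to 3620 CPM in pancreatic KO tumors, and their part was not tested. Of the 10 genes, 3 were called higher and none lower, by edgeR and by DESeq2, where 25.2% of 24787 genes tested were called, 14.6% higher and 10.7% lower. The same 3 had no overlap with oral tumors higher, a count near the 30.8% of all genes that did. In all, 61.5% of genes had no overlap, 30.7% with oral tumors lower. Postn had 739.8 and 818 CPM in oral and 99.7 to 159.8 CPM in pancreatic KO tumors (log2 2.49 ± 0.24, edgeR adjusted p = 0.00532) and held its call in all 15 alternatives. Fmod had 55.9 and 164 CPM against 9.86 to 31.6 CPM (log2 2.41 ± 0.60, edgeR adjusted p = 0.0310), and Thbs2 56.8 and 130 CPM against 25.2 to 37.3 CPM (log2 1.49 ± 0.36, adjusted p = 0.0271). Both lost the edgeR call without oral KO tumor 2 (adjusted p = 0.155 and 0.0936) or without pancreatic KO tumor 1 or 3 (0.0587 to 0.0745), and Thbs2 also without pancreatic KO tumor 2 (0.0595). Dcn had 123 and 37.1 CPM against 32.6 to 117 CPM, with a log2 fold change of 0.14 ± 0.67 (edgeR adjusted p = 0.889), and Lum 0.56 ± 0.58 (adjusted p = 0.473). These comparisons share tumors with the genotype comparisons and are no separate evidence.

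The 10 genes fell into different profiles over the 13 tumors. Likeness was measured as the root mean square difference of log2 CPM after each gene's mean was subtracted, a description over 13 tumors that share organ and genotype. The closest pairs were Thbs1 and Sparc (0.55), Tnc and Fn1 (0.58) and Postn and Fmod (0.71), and the least alike were Tnc and Dcn (2.41). Lum and Dcn differed by 0.79. The measure is not scaled to a gene's own spread, so that genes that vary little come out close. That spread, the root mean square deviation from the gene's mean, was 0.61 for Thbs1, 0.86 for Sparc, 0.88 for Tnc and 0.67 for Fn1. It was 1.78 for Postn, 2.26 for Fmod, 1.97 for Lum, 2.02 for Dcn and 2.055 for Thbs4. The nearest genes outside the set were Sema3g and Col1a2 for Thbs2 (0.37 and 0.47), P3h1 and Fkbp7 for Sparc (0.27 and 0.29), and Art3 and Aspn for Fmod (0.66 and 0.71). Fn1 was nearest to Flt1 and Cdh5 (0.34 and 0.35), Tnc to Adamts4 and Stc1 (0.50 and 0.55), Thbs1 to Zbtb38 and Fmnl3 (0.28 and 0.30), and Postn to Gria3 and Art3 (0.51 and 0.56). Lum was nearest to Plagl1 and Shisal1 (0.61 and 0.63). Dcn (Lrp3 0.89 and Nsg1 0.90) and Thbs4 (Cped1 1.14 and Kcnma1 1.17) had no gene as near. The median over 11524 candidate genes was 0.73 for Thbs1, 2.05 for Dcn and 2.18 for Thbs4.

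**Figure D4:**
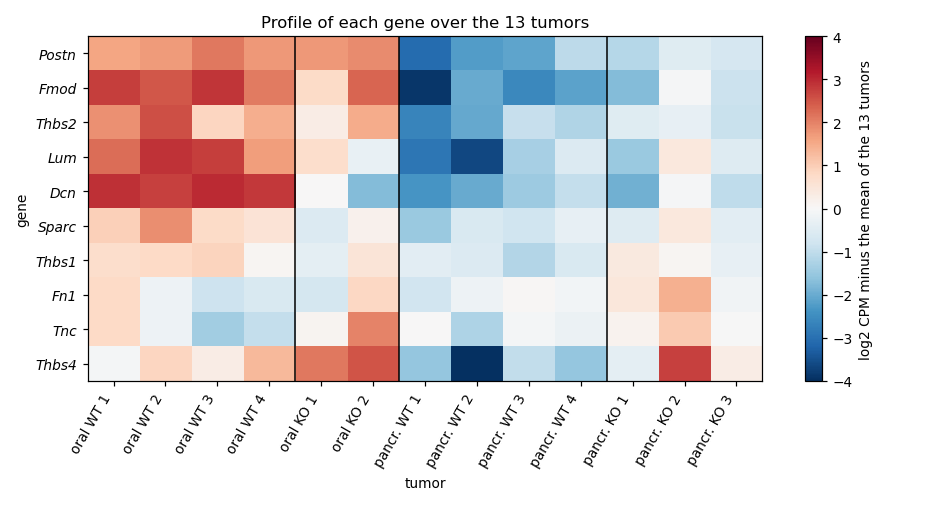
Log2 CPM of each gene in each tumor minus the mean of that gene over the 13 tumors, with black lines between the groups; the color scale is capped at 4 in either direction. Postn is high in all 6 oral tumors, Dcn in the 4 oral WT tumors and in neither KO group, and Thbs4 in both oral KO tumors and in pancreatic KO tumor 2.

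Related matrix genes were read from lists fixed by name. Of 13 other small leucine-rich proteoglycans, 8 were called higher and none lower in oral than in pancreatic WT tumors. Over all genes tested, 9.3% were called higher and 7.24% lower there. Aspn (asporin, a regulator of collagen mineralization) had 83.9 to 135 CPM against 0.944 to 3.47 CPM (log2 5.74 ± 0.41, edgeR adjusted p = 0.00035), and Podnl1 gave a log2 fold change of 5.02 ± 0.52 (adjusted p = 0.000724). Epyc (epiphycan, a proteoglycan known from cartilage) had 55.0, 95.7, 173 and 187 CPM in oral WT tumors and no count in the pancreatic WT tumors, at least 1987-fold higher when 3 counts per library are taken as the floor. In oral KO tumors Epyc had 2.58 and 0.195 CPM, 26 and 5 counts. It was called lower there (log2 -6.66 ± 1.19, edgeR adjusted p = 0.0251), a call lost in 7 of 15 alternatives (adjusted p up to 0.181), among them without oral WT tumor 1 or 2 (0.0524 and 0.0736) or oral KO tumor 1 or 2 (0.0563 and 0.0752).

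Epyc lies in the same stretch of chromosome 10 as 2 of the genes called lower in oral KO tumors. On the plus strand, Dcn is followed after 46984 bases by Lum, after another 34175 bases by Kera (keratocan) and after another 30375 bases by Epyc (chr10:97644068-97682454). Kera, named for its position after its values were seen, had 1.06, 8.65, 7.16 and 38.7 CPM in oral WT tumors and 0.794 and 1.13 CPM in oral KO tumors, so that its groups overlapped (log2 -3.74 ± 1.46, edgeR adjusted p = 0.122). The other proteoglycan called by edgeR in oral tumors was Podn (podocan), higher in KO tumors (4.57 and 6.91 against 1.97 to 2.63 CPM, log2 1.39 ± 0.35, edgeR adjusted p = 0.0414). That call was lost in 11 of 16 alternatives, without each of the 6 tumors in turn (adjusted p 0.0593 to 0.182). DESeq2 called Epyc, Kera and Omd lower and Podn higher in oral KO tumors. The proteoglycans had a median log2 fold change of -0.69 over 13 tested in oral and 0.57 over 11 tested in pancreatic KO against WT tumors. None was called in the pancreas by edgeR, and DESeq2 called 1, Bgn. By edgeR 3 had an unadjusted p under 0.05 there, a count given without the share of all genes and no result about the list.

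Of 19 other matricellular proteins, 6 were called higher and 2 lower in oral than in pancreatic WT tumors. Over all genes tested, 9.3% were called higher and 7.24% lower, so that the count called lower lies near that share. Tnn (tenascin N) had 74.0 to 127 CPM against 0.0228 to 1.16 CPM (log2 8.17 ± 0.93, edgeR adjusted p = 0.0011), in contrast to its relative Tnc, which did not separate the organs. Ccn5 and Fbln5, an elastic fiber protein, were also higher (log2 4.23 ± 0.53 and 3.04 ± 0.46, edgeR adjusted p = 0.00138 and 0.00259). Spp1 (osteopontin) ran the other way in both genotypes. It had 69.05 to 200.5 CPM in oral and 316.5 to 3152 CPM in pancreatic WT tumors, and DESeq2 called it lower in the oral ones. Among KO tumors it had 6383 to 8196 CPM in pancreatic and 63.9 and 129 CPM in oral tumors (log2 -6.36 ± 0.49, edgeR adjusted p = 0.00404). None of the other matricellular proteins was called between genotypes by edgeR among 18 tested in oral and 19 in pancreatic tumors. There 8 and 8 had an unadjusted p under 0.05, counts given without the share of all genes and no result about the list. DESeq2 called 4 in oral tumors (Tnxb higher, Fbln5, Smoc1 and Smoc2 lower) and 2 in pancreatic tumors (Sparcl1 and Spp1, higher). Sparcl1, a relative of Sparc, and Fbln5 were called in the interaction, at -2.39 ± 0.57 and -2.24 ± 0.66 (edgeR adjusted p = 0.0209 and 0.0404), Sparcl1 losing the call in 1 of 21 alternatives, without oral KO tumor 1 (adjusted p = 0.0716), and Fbln5 in 11 (adjusted p up to 0.140).

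**Figure D5:**
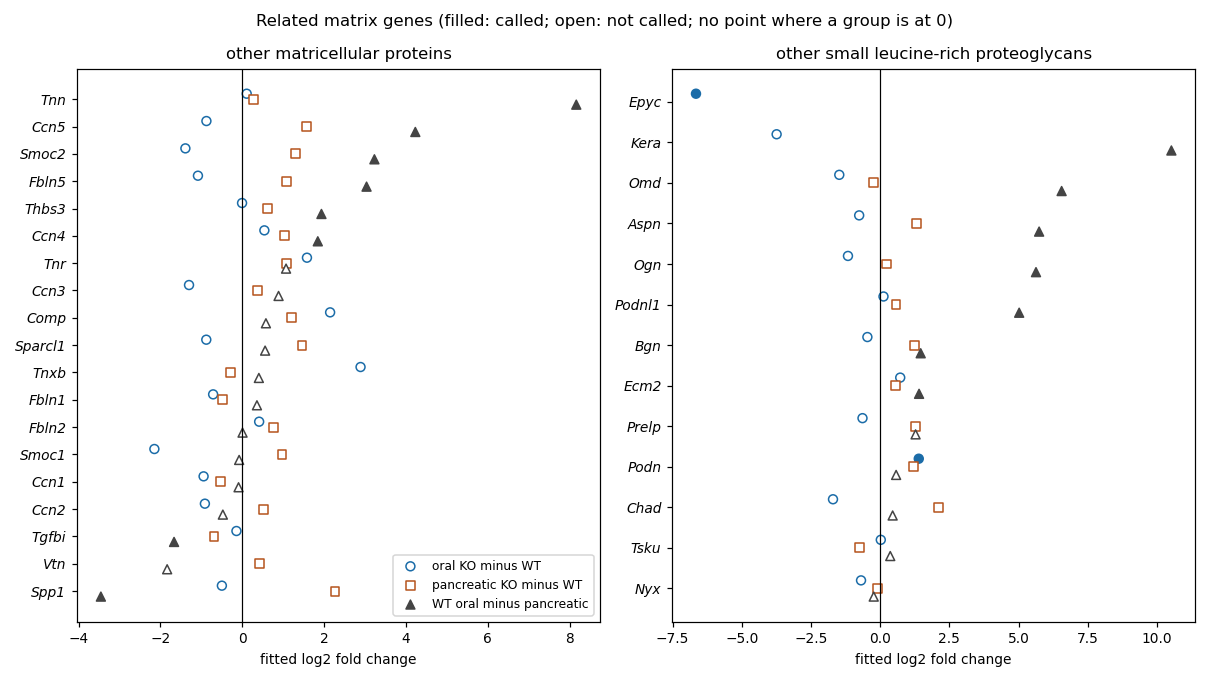
Fitted log2 fold changes of 19 other matricellular proteins and 13 other small leucine-rich proteoglycans in 3 comparisons, in the order of the comparison of WT tumors; filled marks were called, and no mark is drawn where a group had no count in any tumor. In the oral genotype comparison only Epyc (-6.66) and Podn (1.39) are filled, and in the pancreatic one none.

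None of 16 matrix receptors and none of 10 TGF-beta ligands, receptors and latent binding proteins was called by genotype in either organ by edgeR. At an unadjusted p under 0.05 stood 5 of 16 receptors in oral and 4 in pancreatic tumors, and 1 and 2 of 10 TGF-beta genes. These counts stand without the share of all genes, which was large in oral tumors, and are no result about the lists. DESeq2 called Cd36 in oral and Ltbp2 in pancreatic tumors, both higher. All 10 TGF-beta genes had an oral log2 fold change below 0, with a median of -0.44, and 8 of 10 a pancreatic one above 0, with a median of 0.27. Between WT tumors, Tgfb3 (log2 1.98 ± 0.21), Ltbp1 (2.11 ± 0.29) and Ltbp3 (1.29 ± 0.19), a ligand and its latent binding proteins, were higher in oral tumors (edgeR adjusted p = 0.000747, 0.00196 and 0.00232). The syndecans Sdc1 (log2 -1.33 ± 0.19) and Sdc4 (-1.16 ± 0.18), receptors of epithelial cells, were lower there (edgeR adjusted p = 0.00216 and 0.00261), while integrin Itgb3 was higher (1.36 ± 0.26, adjusted p = 0.00712). Basal squamous markers were also lower in oral than in pancreatic WT tumors, with sums of 5123 to 9906 against 11960 to 19690 CPM. Of the 10, 6 were called lower and 1 higher, against 7.24% and 9.3% of all genes. The part of these markers in the syndecan result was not tested.

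Among KO tumors some genes of each related list were called between the organs. Over all genes tested, 14.6% were called higher and 10.7% lower in oral tumors. The counts called higher among 19 other matricellular proteins and 16 receptors lie near that share. Of the other proteoglycans, 6 of 11 tested were higher in oral tumors, led by Omd (log2 5.20 ± 0.56), Podnl1 (4.44 ± 0.48) and Aspn (3.54 ± 0.65, edgeR adjusted p = 0.0149, lost in 2 of 15 alternatives). Of the other matricellular proteins 3 were higher, among them Tnn (log2 7.86 ± 1.04) and Tnxb (3.46 ± 0.36), and 4 lower, including Spp1. Sdc1 (log2 -1.80 ± 0.29), Sdc4 (-1.62 ± 0.24) and the integrin subunit Itgb1 (-1.44 ± 0.27) were among 4 receptors lower in oral KO tumors, with 2 higher. Of the TGF-beta genes, Ltbp1 was higher (log2 1.82 ± 0.40) and Tgfb1 and Ltbp2 lower (-1.24 ± 0.19 and -1.80 ± 0.44), 2 higher and 3 lower in all. Skeletal muscle markers differed most between these groups, with 13 of 14 tested called higher in oral KO tumors, and their part in the list results was not tested.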

How the data were processed

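Bulk RNA of 13 tumors was analysed. The authors trimmed reads with Trim Galore 0.6.10, checked them with FastQC 0.12.1, quantified them with kallisto 0.50.0 (strand-specific) on GENCODE release 23 and summed transcripts per gene with tximport, and the deposited table holds estimated counts for 56085 genes, of which 753 have no values. In it 27.3% of values are not whole, and they were rounded here. Lengths and coordinates (GRCm38) came from GENCODE release 21, which matched 55141 genes (191 with values were not matched).

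Genes reaching a minimum of 10 counts in 2 or more of the tumors compared were tested in R 4.3.3 with edgeR 4.0.16 (TMM, robust quasi-likelihood test, Benjamini-Hochberg adjustment). A gene was called at an adjusted p under 0.05 and a log2 fold change beyond 1 in either direction. Each comparison was fitted on its own tumors, the interaction on all 13, and SE is the log2 fold change divided by the square root of F. The code was tested on simulated data. DESeq2 1.42.0 and apeglm 1.24.0 served as alternatives, beside other size factors and filters, a fit without robust dispersions, 1 fit of all tumors, protein-coding genes alone, thinned counts, the tumor number as a block and leaving out each tumor. Counting error was not compared with the spread between tumors. Some values rest on few counts, such as 8 for Thbs4 in pancreatic WT tumor 2 and 26 and 5 for Epyc in oral KO tumors.

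The 10 genes, the related lists and the marker lists (fibroblast, myofibroblast and mural, tendon, skeletal muscle, chondrocyte, osteoblast, endothelial, myeloid, basal squamous, acinar, endocrine) were chosen with earlier results of these data known. From each related list up to 3 called genes with the smallest adjusted p were named per comparison, from marker lists the most abundant, and for each of the 10 genes the 2 most alike among 11524 protein-coding genes with a mean of at least 5 CPM (log2 values with a prior count of 2). Thbs1, Tnc and Fn1 overlap genes on the other strand, and counting used strand.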

Additional observations from a re-analysis of the deposited data

Results flagged for a closer look

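The genotype effect differed between the organs for 9 genes by the interaction test of edgeR, each time with a lower log2 fold change in oral tumors. Over all 25836 genes tested, 12.3% were called, 4.85% lower and 7.41% higher. Among the 10 genes those called were Dcn (-4.28), Lum (-3.48), Fmod (-2.61) and Sparc (-1.91). Among related genes they were Sparcl1 (-2.39, edgeR adjusted p = 0.0209), Fbln5 (-2.24, adjusted p = 0.0404), Bgn, the proteoglycan biglycan (-1.76, adjusted p = 0.0258), Tgfb3 (-1.67, adjusted p = 0.0273) and Itgb1 (-1.40, adjusted p = 0.0368). That is 2 of 19 other matricellular proteins, 1 of 13 other proteoglycans, 1 of 16 receptors and 1 of 10 TGF-beta genes. These counts lie near the share of all genes called and are no result about the lists. Over 21 alternatives the call was lost in 5 for Bgn, 5 for Tgfb3 and 12 for Itgb1, with adjusted p up to 0.0787, 0.0644 and 0.123. On the CPM scale no tumor stood apart from the others by Dixon's criterion in 20 groups of 4 (10 genes in oral and pancreatic WT tumors). On log2 CPM, a scale added after seeing the data, 1 of the 20 did, pancreatic WT tumor 2 for Thbs4 (0.226 CPM), where chance gives about 1 in 20.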

How the results depend on the processing

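With 2 oral KO tumors, calls in oral tumors rested on single libraries, and where 1 was left it was assumed to vary like the other groups. Leaving out 1 tumor gave 0 to 1 of the 10 genes called higher and 0 to 2 lower in oral tumors (36 to 2616 of all genes, against 2614 with all tumors), 43 to 269 genes in the pancreas (155), 1 to 3 of the 10 between organs among KO tumors and 1 to 5 lower in the interaction (1510 to 4162 genes, against 3168). Among KO tumors the calls over all genes ranged from 3241 to 4988 (6252). Correlations of deviations between tumors of the same number were -0.08 to 0.32, highest for the pancreatic tumors numbered 1. With 1 correlation per number, they cannot exclude that some tumors were paired. With the tumor number as replicate block, 0 of the 10 genes were called higher and 0 lower in oral tumors (Dcn -3.59, edgeR adjusted p = 0.0928, 65 genes in all), 2 higher in the pancreas (590), and 3697 and 1458 genes in the KO organ comparison and the interaction. With protein-coding genes alone the oral counts were 0 higher and 0 lower (27 in all), the pancreatic total 10, the KO organ total 2869 and the interaction 1 of the 10 and 791 in all. With 1 fit of all tumors they were 0 higher and 1 lower in oral tumors (4624). DESeq2 called 4005 genes in oral tumors and 1111 in the pancreas, with 1 of the 10 there, and with apeglm 890 and 1. Without a filter 239 genes were called in the pancreas and 2 of the 10 in the interaction, and with 10 counts required in every tumor 75 in the pancreas and 2431 among WT tumors (3832). With thinned counts 2 of the 10 and 1852 genes were called in the interaction.

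Signs turned for uncalled values: oral Fn1 (log2 -0.14 with the block, -0.52 to 0.96 leaving out 1 tumor), and between organs Tnc (-0.052 with the block, -0.46 to 0.36) and Fn1 (-0.28 to 0.36) in WT tumors. In KO tumors these were Thbs1 (0.094 with 10 counts in every tumor, 0.071 in 1 fit, 0.27 with protein-coding genes, 0.13 thinned, -0.48 to 0.42), Sparc (0.18 with protein-coding genes, 0.071 thinned, -0.48 to 0.27), Tnc (-0.38 to 1.5), Fn1 (-1.44 to 0.10) and Dcn (-0.93 to 0.78), and in the interaction Tnc (-0.47 to 1.35). As CPM over protein-coding counts, Thbs4 and Postn had means of 69.2 and 1018 CPM in oral KO and Dcn 1018 CPM in oral WT tumors. The cause of these changes was not tested. Thbs4 had no value with 10 counts required in every tumor where pancreatic WT tumor 2 (8 counts) took part, and apeglm and 1 fit of all tumors do not apply to the interaction.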

Other observations

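Other cell types in the tumors were read from marker lists. Myofibroblast and mural markers summed to 418 to 673 CPM in oral WT, 373 to 524 in oral KO, 639 to 1096 in pancreatic WT and 852 to 969 CPM in pancreatic KO tumors, and 1 of 8 was called between organs among WT tumors, lower in oral ones. Endothelial markers were alike in range, at 117 to 195, 101 to 141, 118 to 166 and 148 to 211 CPM in the same order. Pancreatic endocrine markers reached 3.35 to 29.1 CPM in pancreatic WT and 1.79 to 11.8 CPM in pancreatic KO tumors. The highest sum was that of pancreatic WT tumor 2, in which Ins1 (8.26 CPM), Ins2 (8.18 CPM) and Gcg (4.30 CPM) lay above Pdx1 (3.71 CPM). Pdx1 had no count in any oral tumor. Cartilage markers summed to 137, 313 and 764 CPM in pancreatic KO tumors 1 to 3, of which Hapln1 made 113, 73.2 and 715 CPM, with Col2a1 at 147 CPM in tumor 2, while none of 9 cartilage markers tested was called by edgeR, 1 having an unadjusted p under 0.05.

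Spp1 (osteopontin) had 316.5, 2395, 483 and 3152 CPM in the pancreatic WT tumors and 6383, 8196 and 8182 CPM in the KO tumors. The groups did not overlap, and the log2 fold change of 2.27 did not pass edgeR's quasi-likelihood test (adjusted p = 0.218).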
